A study of Mus musculus with 3 samples.

Results

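Cadherins and catenins make up the adherens junction, and 7 of their genes were examined for H3K27ac in mouse muscle at 3 ages: *Cdh1*, *Cdh2*, *Cdh3*, *Cdh4*, *Ctnna1*, *Ctnna2*, and *Ctnnb1*. They were taken by name from a sheet of 84 genes with mm9 positions, and each peak was assigned to the nearest TSS of that sheet when the peak edge lay at most 100 kb away. A peak within 2.5 kb of the TSS was called a promoter peak and one farther out a distal peak. Positions of peaks and genes are in mm9 throughout. The libraries came from the tibialis anterior (TA), which lifts the foot, of C57/BL6 mice at 2, 10, and 20 months, with 1 library per age, the antibody Abcam ab4729 in all, and no treatment named. The sources used here give neither the sex nor the number of mice behind a library, and the extraction protocol of the labels speaks of activated SCs (satellite cells) and of RNA where the tissue label and the methods name TA muscle. The 84 genes hold no gene that defines a myofiber, so the labelled tissue was not checked against its own markers here.

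Cadherins are calcium-dependent adhesion receptors that bind the same kind of cadherin on a neighboring cell. The tail of a cadherin inside the cell holds β-catenin, β-catenin holds α-catenin, and α-catenin connects the complex with the actin cytoskeleton, while β-catenin not bound at the junction carries the Wnt signal into the nucleus. In muscle, cadherins hold satellite cells against the myofiber and join myoblasts before they fuse, whereas the cadherins of epithelia and nerve cells are best known from other tissues. H3K27ac is an acetylated form of histone H3 found at active promoters and enhancers.

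Only the catenins *Ctnna1* and *Ctnnb1* had promoter peaks, and they had them at all 3 ages. Distal peaks of the 7 genes numbered 1 at 2 months, 11 at 10 months, and 16 at 20 months, and they belonged to *Cdh1*, *Cdh3*, *Ctnna1*, and *Ctnnb1*. In lists cut to the length of the 2-month list they numbered 1, 5, and 3 when the smallest q were kept and 1, 6, and 6 as the median of random draws, so the order of the later ages rests on the longer list of 20 months. *Cdh2*, *Cdh4*, and *Ctnna2* had neither kind of peak at any age. *Cdh4* nevertheless held 0, 5, and 8 peaks in its gene body, all of them farther than 100 kb from its TSS. At the regions with peaks at both later ages, the level at 20 months was close to that at 10 months on the scale of the genome mean.

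The level of a peak is given as the number of reads at its summit, recovered from the deposited fold and p-value, and as a multiple of the mean coverage of the genome in its library. In the order of age, the libraries held 15933343, 18888715, and 26302098 uniquely mapped reads and the peak lists 17884, 35221, and 44752 peaks. The genome mean was 1.26, 2.24, and 2.5 reads. The lowest summit called was 8 reads at 2 months (6.34 times the genome mean) and 10 reads in both later libraries (4.46 and 3.99 times). Where the background of the peak call (local background) was at the genome mean, a weaker peak could thus enter the later lists. Such a background was found for 78.3%, 2.87%, and 4.89% of peaks in the order of age. At the *Ctnna1* and *Ctnnb1* promoters the later local background was 3.21 to 4.5 times the genome mean, so a higher summit was needed there. Each age has 1 library and hence no replicate error, and the 95% intervals cover counting error only. In chromatin of a whole muscle, fewer cells that carry a mark and less of the mark per cell cannot be told apart. Chromosome Y held 76 peaks at 2 months and 1 at each later age, so a difference in the sex of the mice and one in their age cannot be told apart, although all 7 genes are autosomal.

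Promoter sequences are shown for a catenin gene with promoter peaks at every age and for one with none. The table of RefSeq promoters (GRCm38.p6) held 2 of the 7 genes, *Ctnnb1* and *Ctnna2*, and the 250 bases before the start are printed 5′ to 3′ on the strand of the gene. *Ctnnb1* has 2 starts in the table and the more upstream one is shown. Capitals mark GGGCGG (a GC box, CCGCCC on the other strand) and CCAAT, both searched on both strands. The *Ctnnb1* sequence is chr9:120933150-120933399 (plus strand) and the *Ctnna2* sequence chr6:77979668-77979917 (minus strand).
Ctnnb1: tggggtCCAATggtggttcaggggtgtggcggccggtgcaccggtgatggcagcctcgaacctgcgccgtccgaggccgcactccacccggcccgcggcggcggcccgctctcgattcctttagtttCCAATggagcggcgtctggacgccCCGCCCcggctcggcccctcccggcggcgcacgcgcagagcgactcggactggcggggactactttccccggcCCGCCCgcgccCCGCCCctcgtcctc
Ctnna2: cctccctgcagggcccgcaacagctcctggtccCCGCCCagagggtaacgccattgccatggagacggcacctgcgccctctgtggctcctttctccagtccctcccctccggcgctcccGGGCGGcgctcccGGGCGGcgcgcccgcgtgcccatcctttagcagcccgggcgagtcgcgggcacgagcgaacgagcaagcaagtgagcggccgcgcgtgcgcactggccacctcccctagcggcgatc

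The sequences were alike in being rich in CG and in having 3 GGGCGG matches each. *Ctnnb1* held 35 CG dinucleotides at 74.8% GC, and *Ctnna2* held 30 at 73.2% GC, where the median of the 32851 promoters of the table was 6 at 52.4% GC. By CG dinucleotides they stood at percentiles 97 and 94.1 of the table. CCAAT occurred at 2 places in *Ctnnb1* and at 0 in *Ctnna2*, and TATAAA at 0 in both. Of all promoters of this length, 32.7% held GGGCGG, 33.8% CCAAT, and 12.4% TATAAA. A match is a description of the letters and no binding site. The sequences are of another build than the peaks, so peaks were not placed on them.

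Among the 84 genes, 23.8% had a promoter peak at all 3 ages, and of the 7 genes 2 did. *Ctnna1* encodes the α-catenin found in most tissues (αE-catenin), and the gene lies on the plus strand of chromosome 18 over 136 kb. It had a pair of promoter peaks at every age, 1 on each side of the TSS, with edges 0.097 kb upstream and 0.069 kb downstream. The upstream summit had 17 reads at 2 months, then 44 at 10 and 78 at 20 months. That is 13.5, 19.6, and 31.2 times the genome mean, so each later library was higher than the one before. The ratio of 10 to 2 months was 1.46 (95% interval 0.815–2.72), that of 20 to 2 months 2.31 (1.36–4.17), and that of 20 to 10 months 1.59 (1.08–2.35). When summit reads were scaled by the depth of the library instead (RPM), the ratio of 10 to 2 months was 2.18 (1.22–4.08), whose interval excludes 1, and that of 20 to 10 months 1.27 (0.869–1.89), whose interval includes it. The change of scale moved the median of all regions alike, by a factor of 1.5 for 10 over 2 months, 1.2 for 20 over 2 months, and 0.802 for 20 over 10 months. The genome mean was proportional to mapped reads times the smallest peak width of the list, which was 148, 222, and 178 bp. RPM leaves this width out, and both scales differ by it alone. An interval that excludes 1 in RPM alone is therefore not read as a change at that region.

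The downstream summit of *Ctnna1* had 13, 44, and 61 reads, or 10.3, 19.6, and 24.4 times the genome mean. The ratios were 1.9 (1.01–3.85) for 10 over 2 months, 2.36 (1.28–4.69) for 20 over 2 months, and 1.24 (0.829–1.87) for 20 over 10 months. Both promoter regions were thus lowest at 2 months. Only the upstream one, on the scale of the genome mean, had an interval of 20 over 10 months that excluded 1. Ranked by summit coverage, the upstream peak stood at percentile 72.7 of its own list at 2 months, 66.3 at 10 months, and 93.7 at 20 months. In the later libraries the local background of the peak call at these promoter peaks was 4.08 to 4.5 times the genome mean. Whether that background was drawn from the H3K27ac library or from a control is not given.

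*Ctnnb1* encodes β-catenin and lies at chr9:120842696-120869625 on the plus strand over 26.9 kb. It too had 2 promoter peaks at each age, but only 1 of the 4 regions they form was common to all libraries. That region, chr9:120843671-120844165, starts 0.975 kb downstream of the TSS and had 11 reads at 2 months, then 28 at 10 and 25 at 20 months. These are 8.72, 12.5, and 9.99 times the genome mean. The ratios were 1.43 (0.691–3.19), 1.14 (0.543–2.58), and 0.8 (0.447–1.42) for 10 over 2, 20 over 2, and 20 over 10 months, and every interval includes 1. In RPM the first of them was 2.15 (1.04–4.78), which excludes it.

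The other promoter peaks of *Ctnnb1* were each called in a single library. At 2 months a peak of 16 reads (12.7 times the genome mean) covered the TSS itself, at chr9:120842643-120842824. At 20 months a peak of 43 reads (17.2 times) began 0.328 kb downstream, at chr9:120843024-120843226. At 10 months a peak of 25 reads (11.1 times) began 1.63 kb downstream, at chr9:120844323-120844595. The gene was therefore marked within 2.5 kb of its TSS in all libraries, at positions that differed between the lists. Local background there was 1 times the genome mean at 2 months and 3.21 to 3.38 times later. Peaks that are absent from a list are not shown to lack the mark, since coverage outside the peaks was not analysed here.

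Away from its promoter, *Ctnna1* had 0, 5, and 5 distal peaks. The region with an edge 24.3 kb upstream was the highest of them, with 38 reads at 10 months and 35 at 20 months (16.9 and 14 times the genome mean), and it held 2 peaks at 10 months and 1 at 20 months. The region 30.9 kb upstream had 28 and 29 reads (12.5 and 11.6 times), and the one 96.5 kb upstream 17 and 24 reads (7.58 and 9.59 times). Their ratios of 20 to 10 months were 0.825 (0.506–1.34), 0.928 (0.533–1.62), and 1.26 (0.652–2.51), and each interval includes 1. When the reads of both summits of the region 24.3 kb upstream were summed at 10 months, its ratio was 0.55 (0.35–0.852), which excludes 1. Inside the gene, a region 16.8 kb past the TSS had 34 reads (13.6 times) at 20 months alone, where the local background was also high at 5.16 times the genome mean. A region 95.8 kb past the TSS had 22 reads (9.81 times) at 10 months alone, and *Lrrtm2*, a further protein-coding gene, lies within *Ctnna1*. By the spacing of genes in RefSeq (another build), this region may lie at the start of *Lrrtm2*, which was not tested in mm9. A weak peak 38.8 kb upstream had 12 reads (4.79 times) at 20 months.

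*Ctnnb1* had 0, 2, and 3 distal peaks, all upstream. The region chr9:120761935-120762379, with its edge 80.3 kb from the TSS, had 30 reads at 10 months and 28 at 20 months, or 13.4 and 11.2 times the genome mean. The ratio was 0.836 (0.481–1.45). A lower region 63.9 kb upstream, chr9:120778514-120778816, had 13 and 15 reads with a ratio of 1.03 (0.459–2.36). Close to it, 63.4 kb upstream, a peak of 17 reads (6.79 times) was called at 20 months alone. *Rpl14* is the next protein-coding gene on that side in RefSeq.

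Among the cadherins, distal peaks were found at *Cdh1* and *Cdh3*, which lie next to each other on chromosome 8 in the same direction with 46.4 kb between the end of *Cdh3* and the start of *Cdh1*. *Cdh1* encodes E-cadherin, the cadherin of epithelia, and lies at chr8:109127250-109194147. It had no promoter peak at any age and 0, 3, and 7 distal peaks, and its nearest peak of any kind lay 130 kb from the TSS at 2 months, 39.4 kb at 10 months, and 25.6 kb at 20 months. The strongest region stood at chr8:109206992-109207537, 79.7 kb past the TSS and 12.8 kb past the end of the gene. Its summit had 64 reads at 10 months and 72 at 20 months, which is 28.5 and 28.8 times the genome mean. These were the highest distal levels of the 7 genes, at percentiles 90.1 and 91 of their lists by summit coverage, and the ratio of 20 to 10 months was 1.01 (0.71–1.43). The next protein-coding gene on this side is *Tango6*, and by the spacing of genes in RefSeq the region may be the promoter of *Tango6* rather than a distal region of *Cdh1*, which was not tested in mm9.

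The other *Cdh1* regions were weak. The region 41.5 kb upstream, chr8:109085361-109085737, had 18 reads at 10 months and 19 at 20 months, with a ratio of 0.945 (0.47–1.91). The region 39.4 kb upstream, chr8:109087380-109087895, had 16 and 24 reads, with a ratio of 1.34 (0.685–2.71). Both lie just past the end of *Cdh3*, by 4.55 and 6.57 kb, and reach *Cdh1* only because its TSS is nearer than that of *Cdh3*, which is 50.6 and 52.6 kb away. The 4 regions called at 20 months alone had summits of 12 to 23 reads, or 4.79 to 9.19 times the genome mean. Of these, the only one inside the gene lay 33.7 kb past the TSS and was the weakest, and those 74.3 and 94 kb past the TSS flank the strong region downstream.

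*Cdh3* encodes P-cadherin, known from epithelia and placenta, and lies at chr8:109034752-109080811. It had 1 distal peak at each age, all in the region chr8:108939197-108939905 with its edge 94.8 kb upstream. The summit had 10 reads at 2 months, then 29 at 10 and 43 at 20 months, which is 7.93, 12.9, and 17.2 times the genome mean. This was the only distal region of the 7 genes with a peak at 2 months, where it was a weak one at percentile 4.09 of its list by summit coverage. The ratios were 1.63 (0.773–3.75) for 10 over 2 months, 2.17 (1.07–4.83) for 20 over 2 months, and 1.33 (0.81–2.21) for 20 over 10 months. In RPM the first was 2.45 (1.16–5.63), whose interval excludes 1. The region lies close to the outer limit and on the side of *Zfp90*, the next protein-coding gene upstream, and by the spacing of genes in RefSeq it may be the promoter of *Zfp90*, which was not tested in mm9 either. When a peak was counted for every one of the 7 genes within reach, *Cdh3* had 1, 3, and 4 distal peaks, as those between both genes were then counted for *Cdh3* as well.

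**Figure D1:**
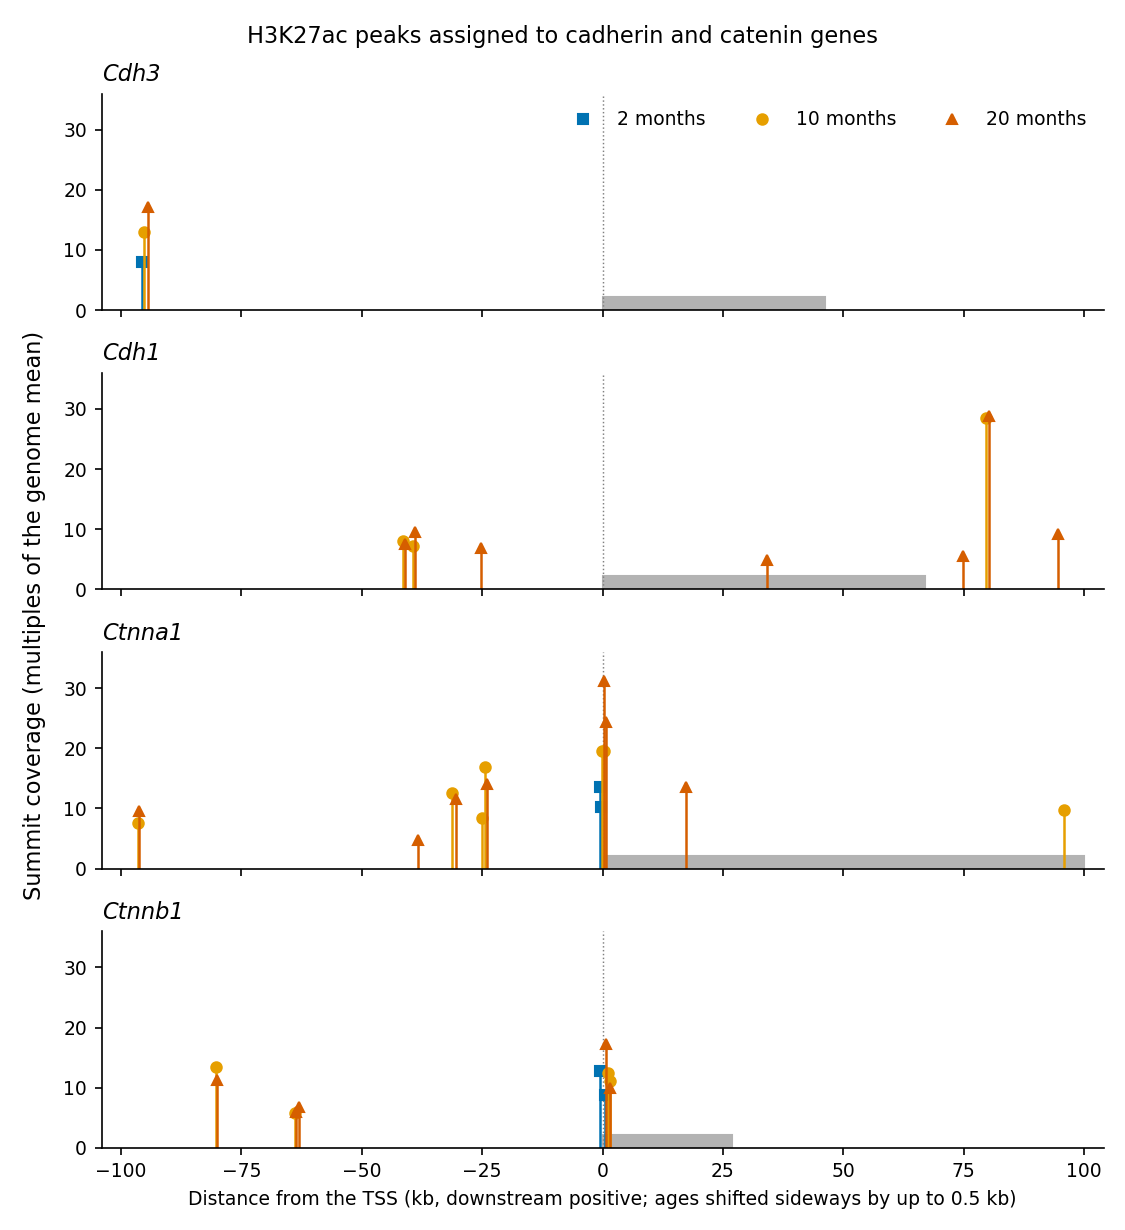
Summit coverage of each peak assigned to Cdh3, Cdh1, Ctnna1, and Ctnnb1, in multiples of the genome mean, against the distance of the peak edge from the TSS in kb (downstream positive). Each stem is 1 peak, its color and marker give the age, and the gray bar is the gene body up to the edge of the plot. Stems of 2 months stand at the promoters of Ctnna1 and Ctnnb1 and at −94.8 kb of Cdh3, and the tallest distal stems are those at +79.7 kb of Cdh1.

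Of the 7 genes, 3 had no promoter or distal peak at any age, beside 15.5% of the 84 genes. *Cdh2* encodes N-cadherin, which myoblasts, satellite cells, and nerve cells carry, and covers 220 kb of chromosome 18. Its nearest peak lay 2130 kb from the TSS at 2 months, 1220 kb at 10 months, and 1280 kb at 20 months, and its gene body held 0 peaks in all libraries. *Ctnna2* encodes the α-catenin of nerve cells (αN-catenin) and is the longest of the 7 at 1100 kb, chr6:76831631-77929661 on the minus strand. It held a single peak, at 10 months, of 15 reads (6.69 times the genome mean) at chr6:77797193-77797417 and 132 kb into the gene. That peak stood at percentile 3 of its list by summit coverage, and *Ctnna2* had 0 peaks in its body at 2 and 20 months.

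*Cdh4* encodes R-cadherin, best known from brain and retina, and covers 405 kb at chr2:179177136-179582409. The number of peaks in its body was 0 at first, then 5 and 8 in the later libraries, or 0, 1.23, and 1.97 per 100 kb. Over the bodies of all 84 genes the density was 0.773, 1.18, and 1.72 per 100 kb, so that of *Cdh4* was near it at the later ages. Of the 17 genes longer than 100 kb, 58.8% held at least 1 body peak at 20 months, and of the 4 among the 7 genes *Cdh4* and *Ctnna1* did. The *Cdh4* peaks fell into 8 regions between 198 and 358 kb from the TSS. The highest, chr2:179374842-179375773, had 46 reads at 10 months and 40 at 20 months (20.5 and 16 times the genome mean), with a ratio of 0.779 (0.497–1.22). In RPM that ratio was 0.624 (0.398–0.975), whose interval excludes 1. It includes 0.807, the median over all regions on that scale, so a decline particular to this region was not shown. The adjoining region at 199 kb, chr2:179375899-179376205, had 43 and 38 reads, with a ratio of 0.792 (0.498–1.25).

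The remaining *Cdh4* regions were lower. The region 206 kb from the TSS, chr2:179383073-179383509, had 17 reads at 10 months and 30 at 20 months, with a ratio of 1.58 (0.844–3.05). Those at 307 and 358 kb had 18 reads each at 10 months and 17 and 16 at 20 months. The 3 regions called at 20 months alone, at 207, 220, and 337 kb, had summits of 26, 14, and 23 reads. The level of the *Cdh4* regions shared by the later libraries thus did not move in one direction, and the larger number at 20 months comes from regions called there alone. With lists cut to equal length by q, the body of *Cdh4* held 2 peaks at each later age. These peaks lie outside the 100 kb used for assignment and are not part of the distal counts.

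**Figure D2:**
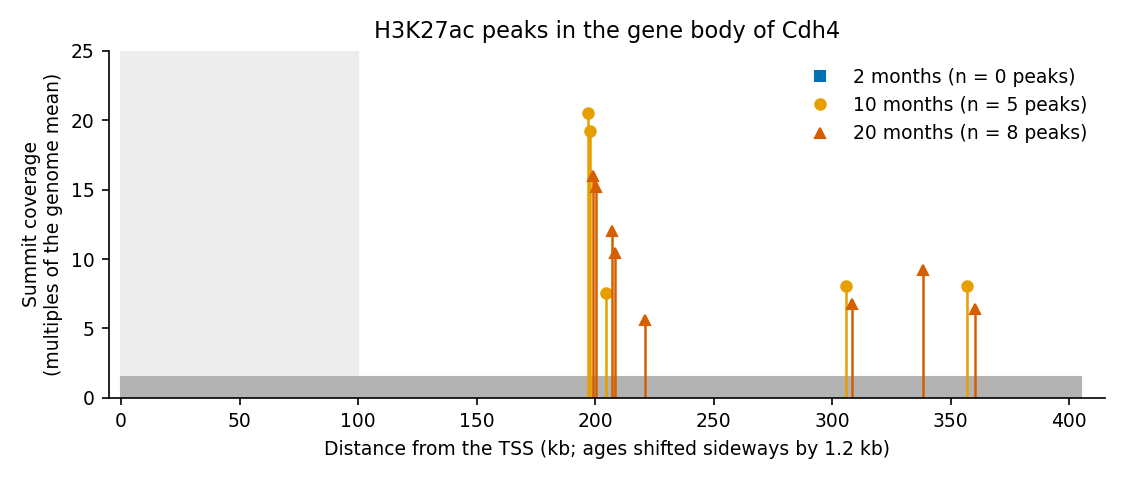
Summit coverage of the peaks in the gene body of Cdh4, in multiples of the genome mean, against the distance from its TSS in kb. The dark bar is the gene, the light band the 100 kb within which peaks were assigned, and each stem is 1 peak. The band is empty at all ages, and the tallest stems of both later libraries stand at 198 and 199 kb.

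Over the 7 genes there were 32 regions in all, 6 at promoters, 17 distal, and 9 in gene bodies beyond the limit. Peaks at all 3 ages were found at 4 of them, peaks at 10 and 20 months alone at 13, at 20 months alone at 11, at 10 months alone at 3, and at 2 months alone at 1. Over the 52693 regions of the genome, 20.1% had peaks at all 3 ages, 33.8% at 10 and 20 months alone, 24.6% at 20 months alone, 10.4% at 10 months alone, and 8.13% at 2 months alone. Of the 17 regions of the 7 genes with peaks at both later ages, 13 lacked one at 2 months, where 62.7% of such regions in the genome did.

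The 4 regions with peaks at all ages, at an overlap of at least 1 bp, were those of the *Ctnna1* and *Ctnnb1* promoters and the one upstream of *Cdh3*. All 4 were higher at 10 and at 20 months than at 2 months, as were 93.3% and 94.4% of all regions with peaks at both ages. Between 2 and 10 months 0 of the 4 reached a 2-fold higher summit coverage, beside 46.8% of all regions, and between 2 and 20 months 3 of the 4 did, beside 51.5%. The exception was the *Ctnnb1* promoter. In RPM a 2-fold higher coverage was reached at 4 of the 4 by 10 months, beside 81.5% of all regions, and at 3 of the 4 by 20 months, beside 69.9%. A 2-fold lower coverage was found at 0 of the 4 in either comparison, beside 0.49% of all regions at 10 months and 0.562% at 20 months. The median ratio over all such regions was 1.95 (quartiles 1.48 and 2.47) for 10 over 2 months and 2.01 (1.56 and 2.52) for 20 over 2 months. The interval of each of the 8 ratios includes the median of its comparison. With only 10 to 17 reads at 2 months, a difference from the whole list was not detectable.

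Between 10 and 20 months, 0 of the 17 regions changed 2-fold in either direction, beside 0.148% of all regions for higher and 0.127% for lower coverage. Their ratios ran from 0.779 to 1.59 with a median of 0.945, where the median over all 28429 regions was 1.01 (quartiles 0.875 and 1.15). The ratio was above 1 at 8 of the 17, beside 51% of all regions, and at 5 of the 17 in RPM, beside 14.7%. The interval included 1 at 16 of the 17, the exception being the upstream *Ctnna1* promoter region.

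**Figure D3:**
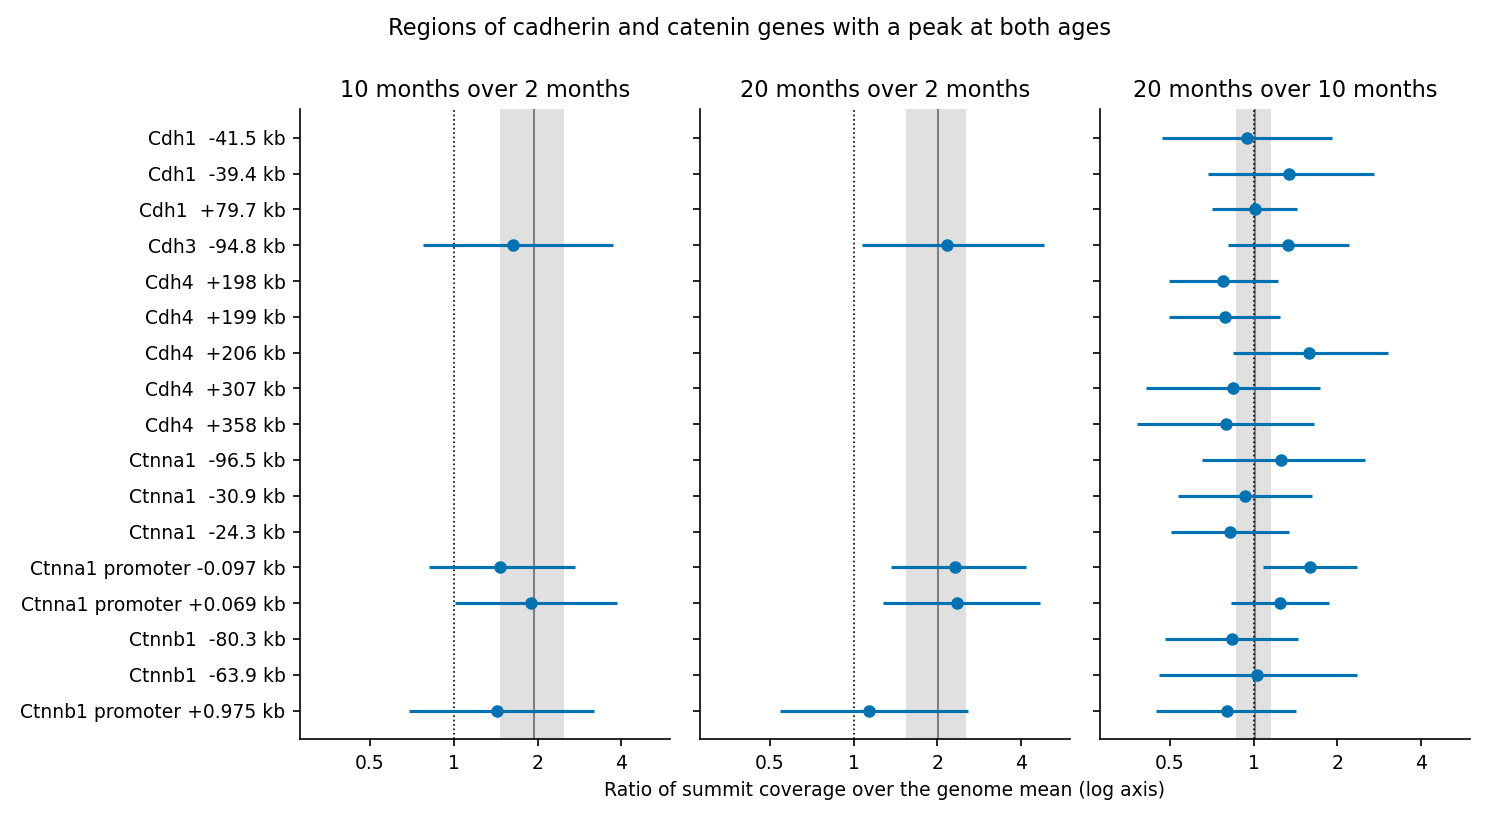
Ratio between ages (log axis) of the summit coverage, in multiples of the genome mean, at each region of the 7 genes with a peak at both ages, labeled by gene and distance from the TSS. Points are ratios, lines their 95% intervals (counting error only), the gray band and line the quartiles and the median over all regions of the genome, and the dotted line a ratio of 1. Points stand right of 1 in both comparisons with 2 months and on both sides of it for 20 over 10 months.

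A further calculation, chosen after the data had been seen, asked how many reads the 27 regions without a 2-month peak would have had in that library. At the same multiple of the genome mean as in the later library with the higher level, 22 of them would have reached 8 reads, the lowest summit called at 2 months. After division by the median ratio of the later library to 2 months, 8 of them would have done so. That median comes from regions called at both ages, which favors regions high at 2 months. This choice and that of the higher later level may both raise the reckoned reads. Of the 16 distal regions, 12 passed by the first reckoning and 5 by the second. The *Cdh1* region 79.7 kb past the TSS would have had 36.3 and 18.5 reads, well above the lowest call. The *Ctnna1* regions at 24.3 and 30.9 kb upstream and 16.8 kb downstream would have had 11, 8.09, and 8.5 reads by the second reckoning, and the *Ctnnb1* region 80.3 kb upstream 8.67 reads. Values of 8.09, 8.5, and 8.67 are so close to 8 that counting error alone could take them under it. A summit of 8 reads was called on a background at the genome mean, and a higher local background would ask for more. The *Cdh4* regions at 198 and 199 kb would have had 13.3 and 12.4 reads and the *Ctnnb1* promoter region of 20 months 10.7 reads. For the 19 others, a region that rose as the median region did would have fallen under the lowest call at 2 months.

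**Figure D4:**
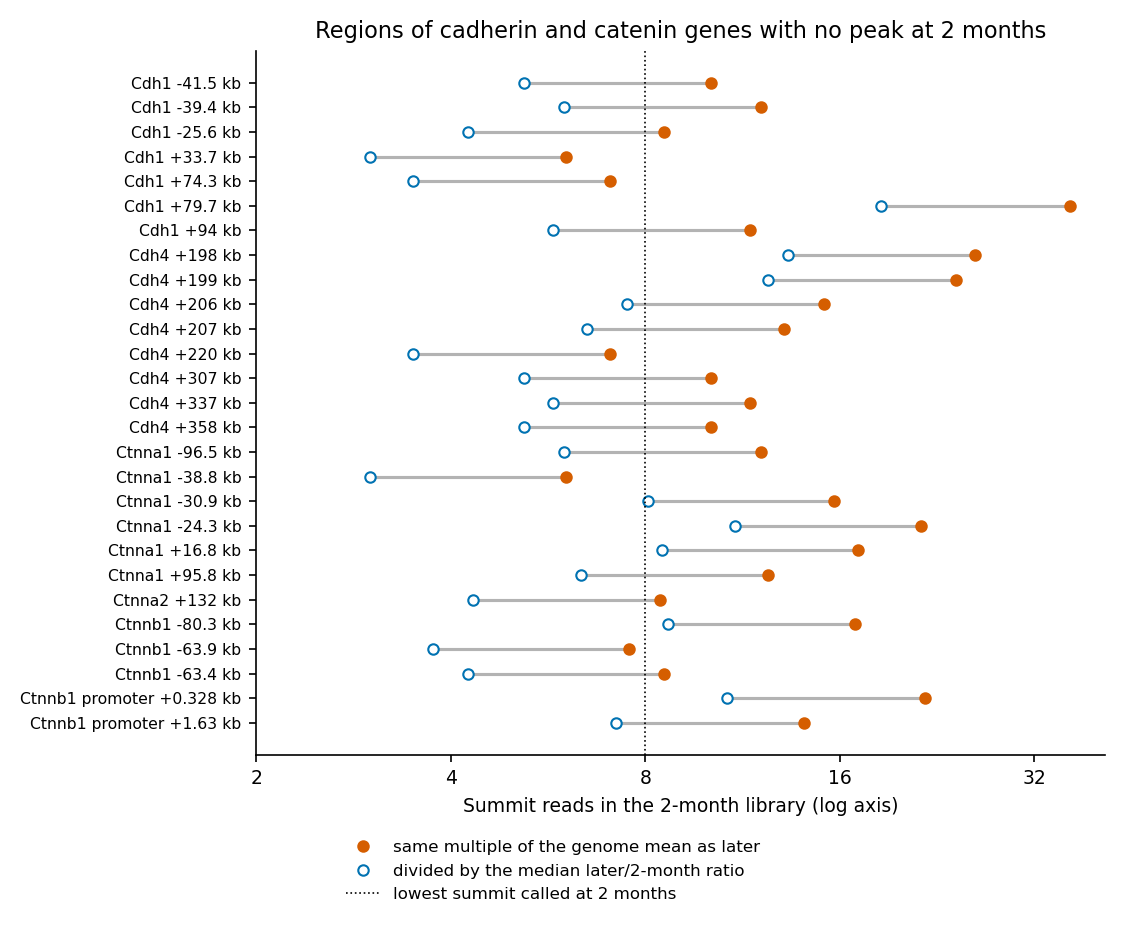
Summit reads that each of the 27 regions without a 2-month peak would have in the 2-month library (log axis). Filled points assume the same multiple of the genome mean as in the higher later library, open points divide this by the median ratio of that library to 2 months, and the dotted line is the lowest summit called at 2 months, 8 reads. Open points stand right of the line at 8 regions, farthest at the Cdh1 region +79.7 kb.

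Genes that lacked distal peaks at 2 months but had some in both later libraries made up 17.9% of the 84, and *Cdh1*, *Ctnna1*, and *Ctnnb1* were such genes, 3 of the 7. More distal peaks at 20 than at 2 months were found at 67.9% of the 84 and at the same 3 of the 7. A distal peak was present at 1 of the 7 genes at 2 months (14.3%, exact 95% interval 0.361–57.9) and at 4 of the 7 at 10 and at 20 months (57.1%, 18.4–90.1). In the 77 other genes it was present at 51.9% (40.3–63.5), 68.8% (57.3–78.9), and 76.6% (65.6–85.5). The 7 genes had 0.143, 1.57, and 2.29 distal peaks per gene and the others 2.51, 4.38, and 5.74. The share with a distal peak was lower in the 7 genes at each age, but the intervals overlap, and with 7 genes a difference was not detectable. No promoter peak at any age was found at 5 of the 7 and at 50% of the 84.

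By the number of distal peaks at the 3 ages, the genes most like *Cdh1* (0, 3, 7) were *Col6a1* (1, 4, 7), *Itgb1* (1, 3, 5), and *Lama2* (0, 3, 4). Those most like *Ctnna1* (0, 5, 5) were *Col2a1* (2, 5, 6), *Entpd1* (1, 6, 6), and *Itgb1* again. *Ctnnb1* (0, 2, 3) stood nearest to *Cd44* (1, 2, 3), *Fn1* (0, 2, 2), and *Adamts1* (0, 1, 2), and *Cdh3* (1, 1, 1) to *Itgax* (0, 1, 1), *Sele* (1, 1, 2), and *Adamts1*. Likeness was the summed difference in peaks over the 3 ages, which was 1 to 3, and at the last place of each list several genes were tied.

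Among the 10 other genes of cell adhesion, a promoter peak at all ages was found at *Cd44*, the hyaluronan receptor, and *Pecam1*, the adhesion molecule of endothelial junctions. The largest increase in distal peaks was that of *Icam1*, a ligand of leukocyte integrins, with 2, 9, and 12. The 10 genes together had 15, 22, and 30 distal peaks, beside 194, 348, and 458 over all 84 genes. In the full lists both families thus had more at each later age, as had the 84 genes together.

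Lists of genes of other cell types were read beside the cadherins. The 6 epithelial genes, to which *Cdh1* and *Cdh3* belong with *Itgb4*, *Lama3*, *Lamb3*, and *Mmp7*, had a promoter peak at 0 of 6 in every library. Over the 84 genes, 26.2%, 34.5%, and 50% had a promoter peak at 2, 10, and 20 months. Distal peaks of the epithelial genes nevertheless numbered 9, 25, and 38, and *Lamb3* alone had 4, 10, and 17. The 5 genes of the nervous system, *Cdh4*, *Ctnna2*, *Cntn1*, *Ncam2*, and *Syt1*, also had 0 promoter peaks, with 0, 0, and 1 distal peaks and 0, 8, and 14 peaks in their bodies. Per 100 kb of gene body that is 0, 0.308, and 0.54, beside 0.773, 1.18, and 1.72 over the 84 genes. Thus the cadherins of epithelia and nerve cells, like the other genes on their lists, had no promoter peak at any age. *Ncam1*, which was not put on the list of the nervous system, had a promoter peak at 20 months. The lists were chosen with earlier results of these data known, so this describes the genes listed and no more.

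The lists for cells that whole muscle is known to hold also differed between the libraries, least so for endothelium. Over all 84 genes the share with a promoter peak also rose, from 26.2% to 34.5% and 50%, and distal peaks from 194 to 348 and 458. With lists of 3 to 5 genes, a difference from the 84 was not tested. Of the 5 fibroblast genes, 0 had a promoter peak at 2 months, 2 at 10 months, and 3 at 20 months. Distal peaks of these genes numbered 7, 10, and 18. *Col3a1* and *Col6a1* had no promoter peak in any library. The 5 leukocyte genes had a promoter peak at 0, 0, and 1 of 5 (*Itgax*) and 30, 42, and 46 distal peaks. The 3 endothelial genes had a promoter peak at 1 of 3 (*Pecam1*) at every age and 12, 10, and 13 distal peaks. What part such cells have in the peaks of the 7 genes was not tested. Distal peaks may also belong to genes outside the 84, which was not tested either.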

How the data were processed

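TA muscle was profiled by H3K27ac ChIP-seq (1 library per age). What the authors deposited are narrow peak lists, with a score, a ratio (fold of summit pileup over background), a −log10 p-value, and a −log10 q-value per peak. The submitters' processing notes name Bowtie2 and MACS2 2.1.0 with mm9. Neither the version of Bowtie2 nor the control library of the peak calls is given in the sources used here. The deposited score was not used. Gene positions and uniquely mapped reads are those the study gives. No mm9 genome or annotation was used, and RefSeq (GRCm38.p6) gave names of neighboring genes and 2 promoter sequences.

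Summit reads and local background were the values that return the deposited fold and −log10 p together, within 0.001 in −log10 p. In each of the later lists 1 peak gave no such values. Tested on simulated data, this returned the drawn reads for 100% of 2000 peaks per library. The genome mean was the lowest background recovered in a list, which 78.3% of peaks had at 2 months, 2.87% at 10 months, and 4.89% at 20 months. Peaks sharing at least 1 bp were merged into regions, and a region has the level of its highest summit. Intervals are exact conditional binomial for ratios and Clopper-Pearson for shares, at 95%. With 1 library per age, ages were not tested against each other. Summit reads are few (8 at least), which makes intervals wide.

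The 7 genes and the lists were chosen with earlier results of these data known. All 7 are named, besides up to 3 genes with the most similar distal counts per gene (ties in alphabetical order) and, of each comparison list, up to 3 genes with a promoter peak at all ages or with the largest rise in distal peaks. Others are named as members of a list or as neighbors. The reckoning of 2-month reads and the shares of all regions in RPM were added after seeing the data. Alternatives were other distance limits (none, 5, 50, and 1 kb), counting for every one of the 7 genes within reach, merging within 1 kb, a list cut to the 50% of smallest q, lists of equal length (by q or in 100 random draws), RPM, summed reads, and 50% overlap. The tools were scipy 1.17.1, numpy 2.4.6, and pandas 2.3.3 under Python 3.11.15, with matplotlib 3.10.9 for figures.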

Additional observations from a re-analysis of the deposited data

How the results depend on the processing

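Both later ages had more distal peaks than 2 months under every alternative run, but the numbers depended on the limits and on the length of the lists. Distal peaks of the 7 genes, 1, 11, and 16 as reported, were 5 at 2 months with no inner limit. With an outer limit of 50 kb they were 0, 5, and 8, and in lists cut to the 50% of smallest q 0, 5, and 6. In lists of equal length they were 5 at 10 months and 3 at 20 months by q, and 6 and 6 as the median of 100 random draws, so by q the order of the later ages turned. The genes with a distal peak, 1, 4, and 4, were 0, 2, and 2 within 50 kb and 0 at 2 months in the smallest-q lists. Promoter peaks, 4 at each age, were 2 at 10 months within 1 kb, 2 at 2 and at 10 months in the smallest-q lists, 2 at 10 months in equal lists by q, and 2 at 10 and at 20 months in random draws. In the equal lists by q, *Ctnnb1* had 2, 0, and 1 promoter peaks while *Ctnna1* kept 2, 2, and 2. Peaks in gene bodies, 10 and 13 at the later ages, were 4 and 4 in equal lists by q. All 73 alternative values of the summit ratios stayed within the wide interval of the reported ratio. They are no independent check, since RPM multiplies every ratio of a comparison by the same factor. Summed reads and 50% overlap left nearly all ratios unchanged. The 2 ratios to 2 months at the *Ctnnb1* promoter region had no value at 50% overlap. Some ratios changed side of 1 nonetheless. In RPM the ratio of 20 to 10 months went from 1.01 to 0.808 at the strong *Cdh1* region, from 1.24 to 0.996 at the downstream *Ctnna1* promoter region, and from 1.03 to 0.829 at the *Ctnnb1* region 63.9 kb upstream, where no interval excluded 1. Intervals that came to exclude 1, or to include it, are given with the regions. Leaving out a replicate was not possible with 1 library per age. No paired analysis was possible because each age has 1 library. Low summit reads limit the 2-month values most, with 10 to 17 at the regions of the 7 genes.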
